A study of Drosophila melanogaster with 3 samples.

Results

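The 10 genes described here are hb, Kr, nub, pdm2, cas, grh, wor, dpn, mira and pros, which give embryonic neuroblasts their identity, time the fates of their daughters or carry fate to them. They were taken as a named list of Ensembl genes from the 13945 protein-coding genes of the 6 major chromosome arms, by name and role, with earlier results of these data known. Chromatin bound by Senseless, a zinc finger transcription factor of sensory organ precursors, was immunoprecipitated and sequenced in 3 biological replicates of whole Drosophila melanogaster embryos 4 to 14 hours old, pooled from both sexes. All embryos came from 1 transgenic line, which stably expresses Senseless with green fluorescent protein (GFP) at its C-terminus, and an antibody against GFP pulled the fusion down. The 3 replicates form 1 group, with no second condition, and the labels name no cell type beyond the whole organism, so a peak is not tied to neuroblasts. Whether the fusion stands beside an intact copy of sens is not given in the sources used here.

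Neuroblasts are the stem cells of the fly's central nervous system. They delaminate from the neuroectoderm and divide asymmetrically, and many of them pass through a fixed series of transcription factors, Hunchback, Krüppel, the Pdm proteins, Castor and Grainyhead, so that daughters born at different times take different fates. Worniu and Deadpan mark and maintain the stem cell, while Miranda is the adaptor that carries the homeodomain protein Prospero into the daughter, where Prospero ends stem cell behaviour.

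The authors' peak lists on the dm6 build held 30000 peaks for replicate 1, 30000 for replicate 2 and 27681 for replicate 3, and 28357 for the pooled replicates. Their optimal list by irreproducible discovery rate (IDR), here called the reproducible list, held 3811 peaks, which are the 3811 strongest of the pooled list. A summit is the peak's highest point, a rank is the peak's place in its list by the authors' signal value (1 is the strongest), and a territory is the gene body plus 5 kb on each side. The signal value is the authors' own, on a scale that is not stated, and library depth is unknown, so ranks within a list are used and no interval is given. No test was made, since the series has no contrast between conditions.

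Of the 10 genes, grh and pros had reproducible summits in their territories, 4 in all, and the other 8 had none. The share was 2 of 10 genes (20.0%), against 42.4% of all protein-coding genes (5912 of 13945). For 7 genes (hb, Kr, nub, pdm2, wor, dpn and mira) there were only pooled peaks below the reproducible list, a state that 44.9% of all protein-coding genes shared. A pooled summit of any strength was found in 9 territories, against 87.3% of all. The exception was cas, and 12.7% of all territories had none. A territory takes in more sequence for a longer gene, and both genes with reproducible summits are long. Among genes of at least 25 kb the count was 2 of 4 (grh and pros, but not nub or pdm2), against 61.2% of the 810 protein-coding genes of that length. Among genes under 10 kb it was 0 of 6 (hb, Kr, cas, wor, dpn and mira), against 39.6% of 11968. By replicate, a peak among the 3811 strongest lay in the territories of nub, grh and pros in replicate 1 (3 of 10), against 42.6% of all protein-coding genes, and of grh and pros in replicates 2 and 3 (2 of 10 each), against 42.6% and 42.2%.

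**Figure D1:**
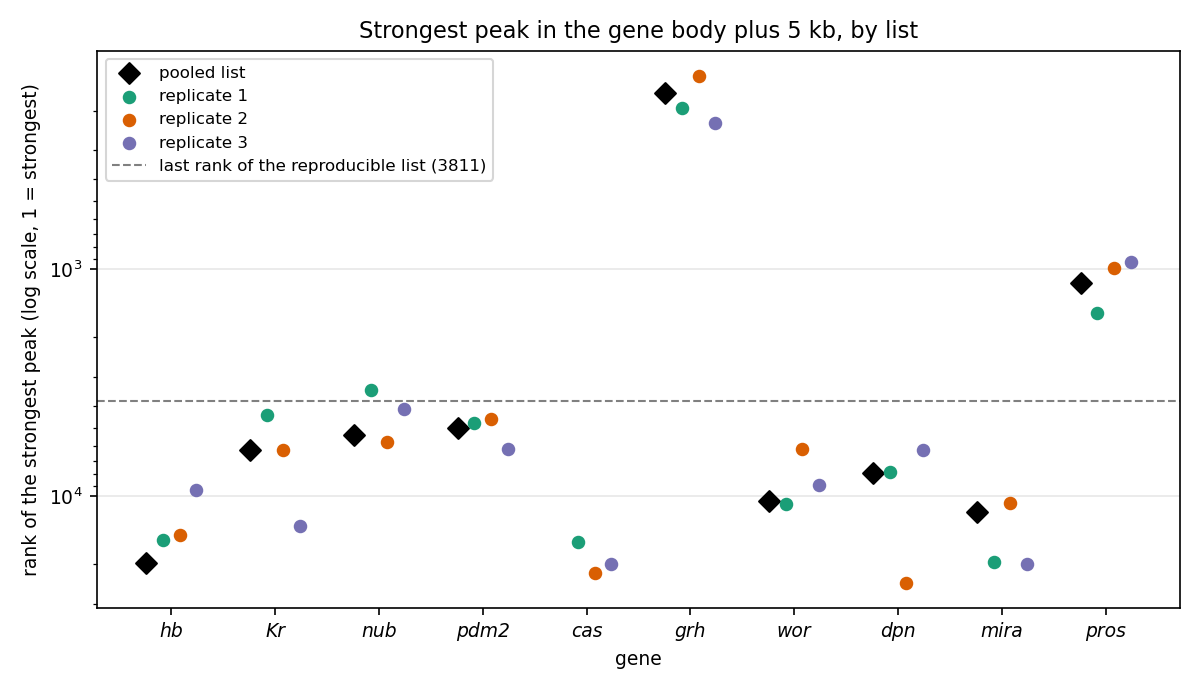
Rank of the strongest peak in the territory of each of the 10 genes (y axis, log scale, 1 is the strongest) in the pooled list (diamonds) and in each replicate (circles), with a dashed line at rank 3811. In every list grh and pros lie above the line, nub does so in replicate 1 alone, and cas has no diamond because no pooled peak falls in its territory.

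The sequences at 5 summits are shown because they let the letters under a reproducible site (pros) be set beside those under weaker ones (pdm2, nub and wor), all outside UTRs. They were read from the RefSeq dm6 genome on the plus strand, 50 bp on each side of the summit, or, for wor, the 100 bp before its transcript start, which hold the summit. Capitals mark any E-box, CANNTG, the kind of site that proneural proteins bind.
pros, intron, rank 1151, chr3R:11368844-11368944: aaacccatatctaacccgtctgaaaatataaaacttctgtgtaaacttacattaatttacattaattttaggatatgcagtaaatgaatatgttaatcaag
pros, intron, rank 3069, chr3R:11351482-11351582: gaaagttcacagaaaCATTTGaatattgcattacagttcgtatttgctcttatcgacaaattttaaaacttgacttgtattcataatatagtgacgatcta
pdm2, intron, rank 4998, chr2L:12681990-12682090: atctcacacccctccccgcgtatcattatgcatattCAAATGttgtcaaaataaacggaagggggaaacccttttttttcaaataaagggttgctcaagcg
nub, intron, rank 5386, chr2L:12589015-12589115: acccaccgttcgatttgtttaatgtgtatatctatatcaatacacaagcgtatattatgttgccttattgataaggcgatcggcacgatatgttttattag
wor, before the start, rank 10506, chr2L:15425581-15425680: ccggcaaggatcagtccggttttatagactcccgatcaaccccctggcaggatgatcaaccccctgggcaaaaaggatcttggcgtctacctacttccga
None of these 5 windows held the core of the Senseless site, AAATCA, or the GATA site AGATAA on either strand. Only this exact form of the GATA site was searched. Other forms, such as the letters tgataa in the nub window, were not counted here or below. A single E-box each was found in the second pros window and in the pdm2 window.

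Of the 6 temporal genes (hb, Kr, nub, pdm2, cas and grh), only grh had a reproducible summit. grh encodes Grainyhead, which is also a major regulator of epidermal genes, and it spans 41689 bp (2R, 17801132 to 17842820, plus strand, with 5 annotated transcript starts). Its reproducible summit lay at 2R position 17804960, in an intron, 3828 bp inside the gene and 2093 bp downstream of the nearest grh transcript start. It had a signal value of 714.6 and rank 167 of 3811. The covering peak ranked 194, 141 and 228 in replicates 1, 2 and 3, and their summits lay at 17804957, 17804961 and 17804950. The site was thus among the strongest of each replicate, with summits a few bases apart. By gene record rather than transcript, the nearest start was that of the antisense RNA gene asRNA:CR45270, 3036 bp away.

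The territory of grh held 20 pooled summits, the most of the 10 genes. Below the reproducible summit, 3 more reached a q-value of 0.01. Those ranked 4561 and 4798 lay beyond the 3′ end of grh, inside the neighbour Orai, a calcium channel gene, and nearest to the starts of Orai and olf186-M. The last of the 3, ranked 5830, lay 122 bp inside the gene at the first grh start, within an exon of asRNA:CR45270, and its covering peaks ranked 4301, 5435 and 13433 in replicates 1, 2 and 3. That window had 2 matches to AAATCA, while the window of the reproducible summit had none and a GC content of 21.8%, against 34.3% ± 8.66 (SD over 3811 reproducible summits).

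**Figure D2:**
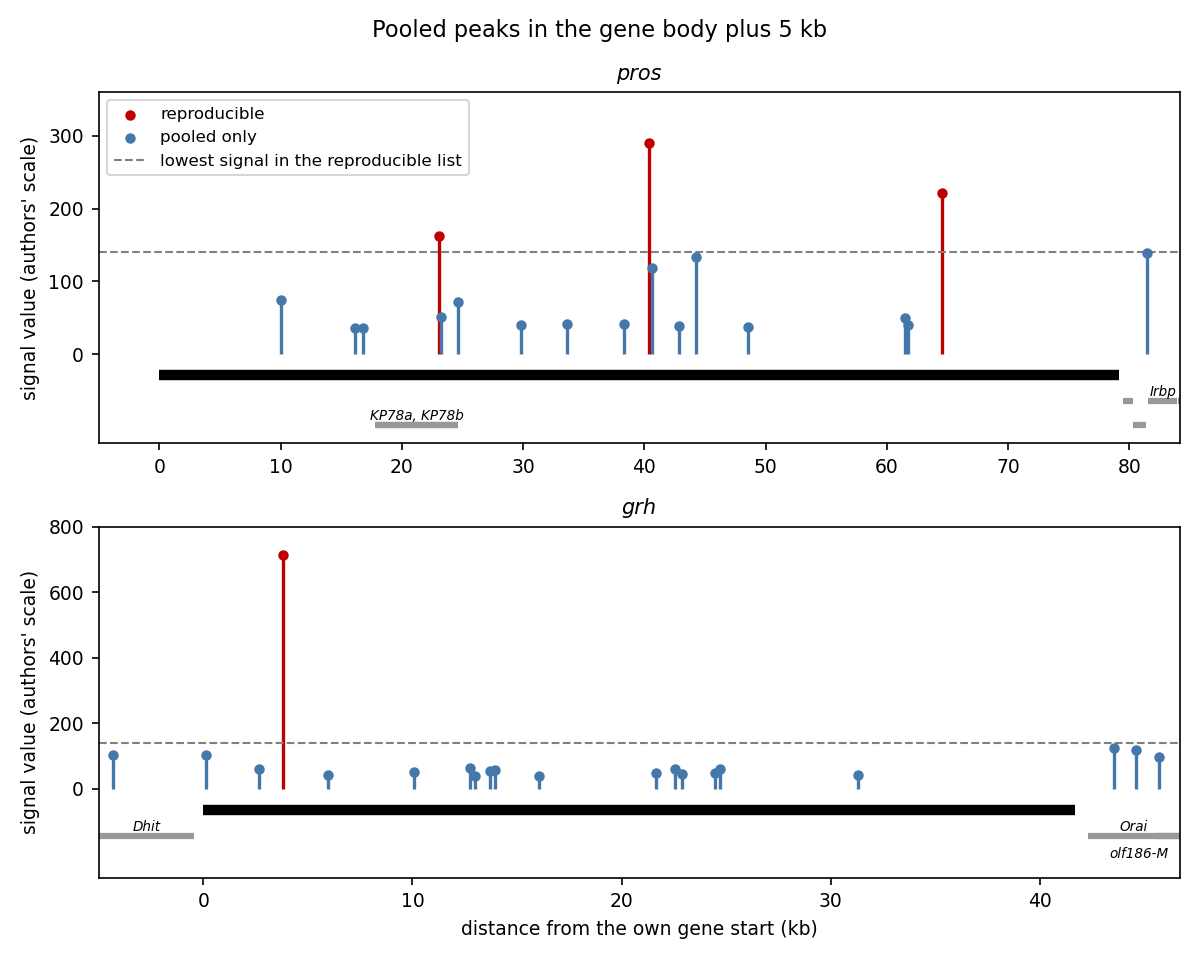
Signal value of each pooled peak (y axis, authors' scale) against its distance from the own gene start in kb (x axis) for pros (top) and grh (bottom), in red where the peak is in the reproducible list and in blue where it is not. Black bars are the gene itself, grey bars other protein-coding genes, and the dashed line is the lowest signal value of the reproducible list, 139.8; pros has 3 red peaks inside the gene and grh has 1.

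The paired POU-domain genes nub and pdm2, neighbours on 2L that act together after Kr in the series, had their strongest peaks below the reproducible list. The gene nub (12587625 to 12628135, plus strand) held 14 pooled summits. The strongest, at 12589065, lay in an intron 1440 bp downstream of the gene start, with a signal value of 110.6, rank 5386 and a −log10 q of 2.31. Its covering peak ranked 3428 in replicate 1, which is among that replicate's 3811 strongest, and 5759 in replicate 2, and replicate 3 had no peak over it. In replicate 3 the strongest peak of the territory was another one, ranked 4154, at 12614379. Replicates 1 and 2 thus shared their strongest site at nub, with summits at 12589065 and 12589068, and replicate 3 did not. Much of the 3′ part of nub is overlapped by Ref2, on the other strand, so peaks there lie in both genes.

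The gene pdm2 (12657165 to 12686306, plus strand) held 8 pooled summits. Its strongest, at 12682040, lay in an intron, 24875 bp from the gene start and 3436 bp downstream of the nearest of its 4 transcript starts, with a signal value of 116.6, rank 4998 and a −log10 q of 2.54. All 3 replicates had a peak over it, at ranks 8138, 4599 and 6221. A second summit lay 144 bp downstream of an internal pdm2 start, in the 5′ UTR, at rank 11822, and only replicate 1 covered it, at rank 4779. With nub, pdm2 was a gene whose peaks passed a q-value of 0.01 in the pooled list without entering the reproducible list. At that q-value 4 of the 10 genes had a summit (grh, pros, nub and pdm2), against 54.2% of all protein-coding genes.

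At Kr, a zinc finger gap gene and the second step of the series (2R, 25226611 to 25231394, plus strand), the strongest of 4 pooled summits lay on the transcript start. It was 9 bp inside the gene, at rank 6267, with a signal value of 99.03 and a −log10 q of 1.84. Covering peaks ranked 4393 in replicate 1 and 6273 in replicate 2, with summits 38 bp upstream and 11 bp downstream of the start. Replicate 3 had no peak over the pooled summit. The strongest peak of replicate 3 in the territory ranked 13605, 246 bp upstream, and overlapped the pooled peak without reaching its summit. One match to AAATCA lay 3 bp from the pooled summit. Kr stands inside an intron of CG9380, and all 4 pooled summits lie in that intron, those upstream and downstream of Kr included.

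At hb, the zinc finger gap gene that opens the series (3R, 8690980 to 8697822, minus strand), 3 weak pooled summits were found, at ranks 19730, 20468 and 22357 of 28357. The strongest lay downstream of the gene, 659 bp upstream of the start of lncRNA:CR44937, and the other 2 in an intron of hb. Replicate 2 alone covered the stronger pair, and no replicate covered the weakest. The replicates' own strongest peaks in the territory ranked 15573, 14802 and 9418, at 3 different places. No pooled summit of hb was thus covered by more than 1 replicate.

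For cas, a zinc finger gene between the Pdm proteins and Grainyhead in the series (3R, 5712975 to 5716805, minus strand), only peaks of single replicates were present. Replicate 1 had 2, at ranks 15964 and 24960, replicate 2 had 1 at rank 21855 and replicate 3 had 1 at rank 19949. They lay 5885, 4240 and 7355 bp downstream and 3914 bp upstream of the cas start. Those downstream lay inside plx, the neighbour on the other strand, and the upstream one was nearest to the start of lncRNA:CR44924. The nearest reproducible summit, ranked 2118, was 7338 bp from cas and 1103 bp upstream of a plx start.

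**Figure D3:**
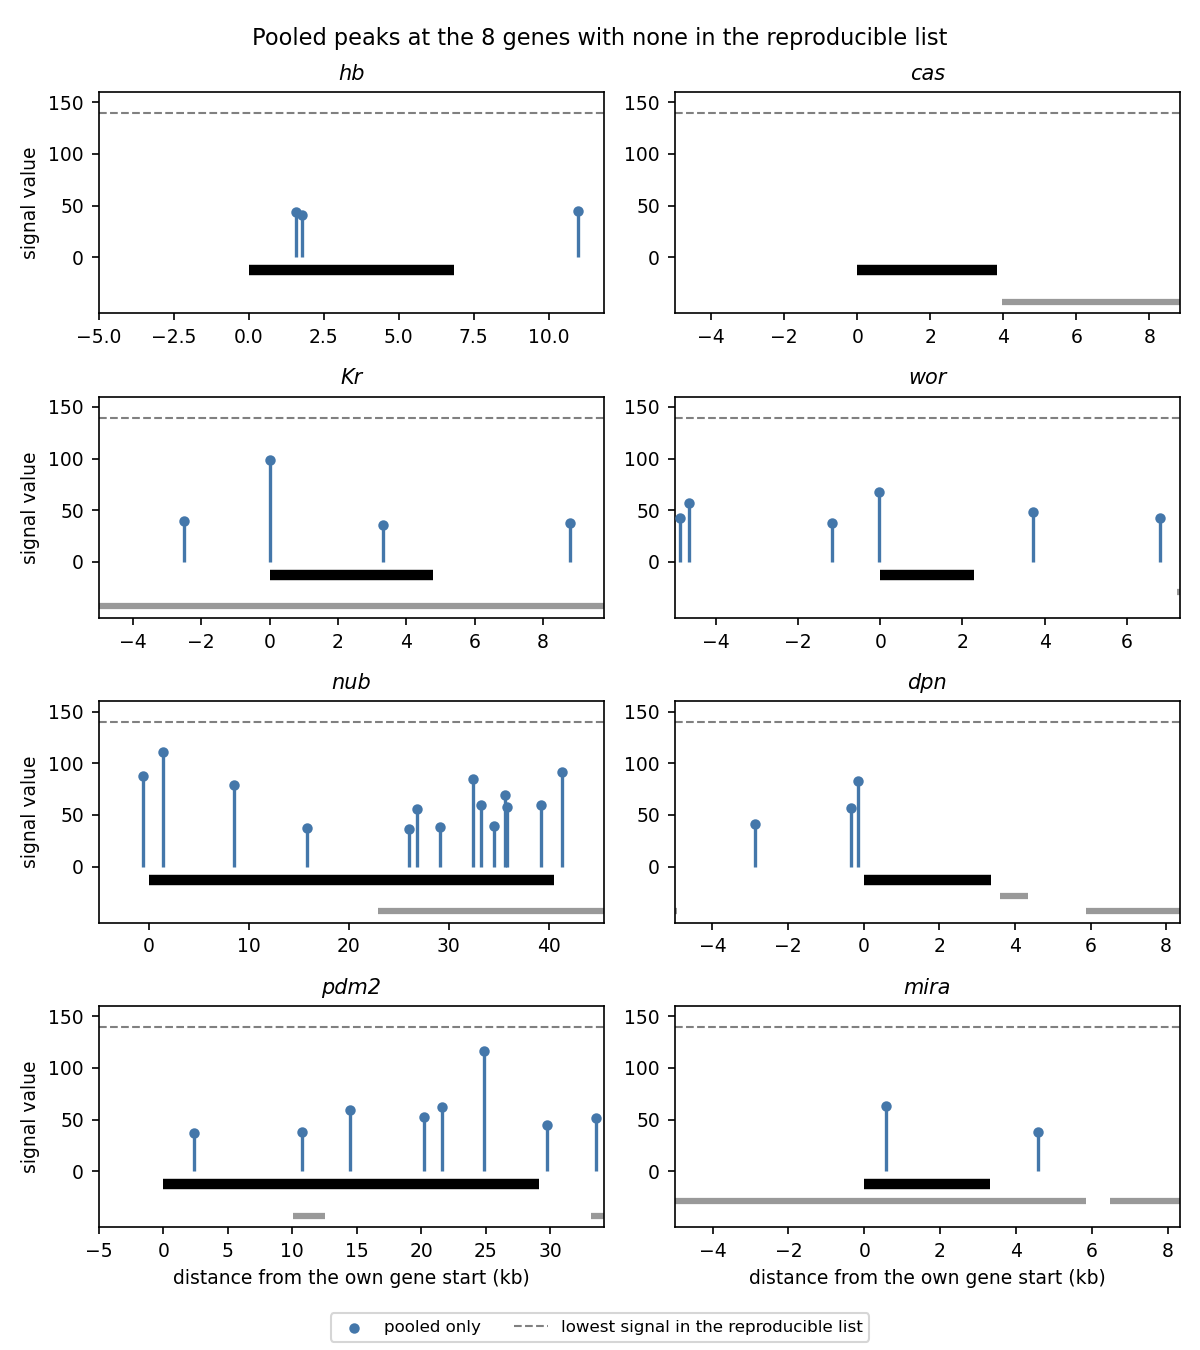
Signal value of each pooled peak (y axis, authors' scale, the same in all panels) against its distance from the own gene start in kb (x axis) for the 8 genes with no reproducible summit. Black bars are the gene, grey bars other protein-coding genes, and the dashed line is the lowest signal value of the reproducible list; all points stay under it, and cas has none.

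Neither of the identity genes had a reproducible summit, yet the strongest pooled peak of each lay at its own promoter. At wor, a Snail family zinc finger gene (2L, 15423297 to 15425580, minus strand), the strongest of 6 pooled summits was 35 bp upstream of the start, with a signal value of 67.8, rank 10506 and a −log10 q of 0.744. Replicate 2 alone had a peak over it, at rank 6203. Replicates 1 and 3 had none there, and their strongest peaks of the territory ranked 10831, 4653 bp upstream, and 8933, 6687 bp downstream of the start. A peak was thus called at the wor promoter in 1 of 3 replicates, and the signal of the others below calling is not analysed here.

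At dpn, a basic helix-loop-helix repressor gene of the Hes family (2R, 8228971 to 8232330, minus strand), the strongest of 3 pooled summits was 147 bp upstream of the start, with a signal value of 82.96, rank 7927 and a −log10 q of 1.25. A second lay 348 bp upstream, at rank 13562. The same peak of each replicate covered both, at ranks 7802, 24070 and 6257, with summits 302, 346 and 288 bp upstream. The dpn promoter was thus covered in every replicate, weakly in replicate 2. A single Zelda site, CAGGTAG, lay 20 bp from the first summit. A strong reproducible summit stood just outside the territory, 5061 bp from dpn at rank 1340, and was nearest to the start of pnut, a septin gene, at 120 bp.

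Of the asymmetric pair, pros carried 3 reproducible summits and its adaptor mira carried none. pros is the longest of the 10 genes, at 79148 bp (3R, 11328480 to 11407627, plus strand, 4 transcript starts), and held 18 pooled summits. Its strongest, at 11368894 with a signal value of 290.5 and rank 1151, lay in an intron, 3894 bp upstream of the most downstream pros start and 40414 bp inside the gene. The covering peak ranked 1995, 991 and 1156 in replicates 1, 2 and 3. No E-box, AGATAA, Zelda or AAATCA match was found within 50 bp of it.

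The next, at 11393012 with a signal value of 220.9 and rank 1879, lay in the 3′ UTR, and the nearest start of any transcript was that of mRpL40, 14906 bp away. It ranked 2927, 3212 and 929 in replicates 1, 2 and 3, so it was the strongest pros peak of replicate 3. The weakest of the 3, at 11351532 with a signal value of 161.6 and rank 3069, lay in an intron of pros that holds the kinase genes KP78a and KP78b on the other strand, inside an intron of these too, and 1599 bp downstream of a KP78a start. It ranked 1940 and 2267 in replicates 1 and 2 but 10930 in replicate 3, outside that replicate's 3811 strongest. Of the 3 sites, the first 2 were among the strongest peaks of all 3 replicates.

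A pair of pros peaks stood just under the end of the reproducible list. One, ranked 3869 with a signal value of 138.6, lay downstream of pros between mgr and Irbp, 80 bp upstream of the mgr start, at ranks 5263, 2786 and 5619. The other, ranked 4074 with a signal value of 133.4, stood 16 bp upstream of the most downstream pros start, inside a coding exon of the longer pros transcripts. Its covering peaks ranked 1556 in replicate 1, where it was the strongest pros peak, 10101 in replicate 2 and 4648 in replicate 3. The replicates differed more over this pros start than over the intronic site upstream of it.

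At mira (3R, 19931799 to 19935120, minus strand), which lies inside Hs6st, the 2 pooled summits ranked 11714 and 25198. The stronger, with a signal value of 62.8, lay in a coding exon 463 bp downstream of the nearer mira start. Replicate 2 alone covered it, at rank 10741. Replicate 1 had a weaker summit of its own 673 bp downstream of that start, at rank 22838. Its peak overlapped the pooled peak and ended at 19934534, just short of the pooled summit at 19934535. The single peak of replicate 3 in the territory ranked 19908, nearest to CG4459.

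By the best rank in each replicate, the 10 genes fell into an order with few clear steps. grh stood at ranks 141 to 228 and pros at 929 to 1556, and neither range met another gene's. The ranges of nub (3428 to 5759) and pdm2 (4599 to 6221) overlapped, as did those of Kr (4393 to 13605), dpn (6257 to 24070), wor (6203 to 10831), mira (10741 to 19908) and hb (9418 to 15573) with their neighbours in the order. The range of cas (15964 to 21855) overlapped those of dpn and mira. The median over the 10 genes of the best pooled rank was 7097, against 5116 over all protein-coding genes, with a gene without a pooled peak placed last in both. These medians are not matched for length. The 10 genes had a median length of 5813.5 bp, against 2166 bp over all protein-coding genes. The density of pooled summits had a median of 2.14 per 10 kb over the 10 territories (0 at cas to 4.88 at wor), against 2.48 over all protein-coding genes.

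**Figure D4:**
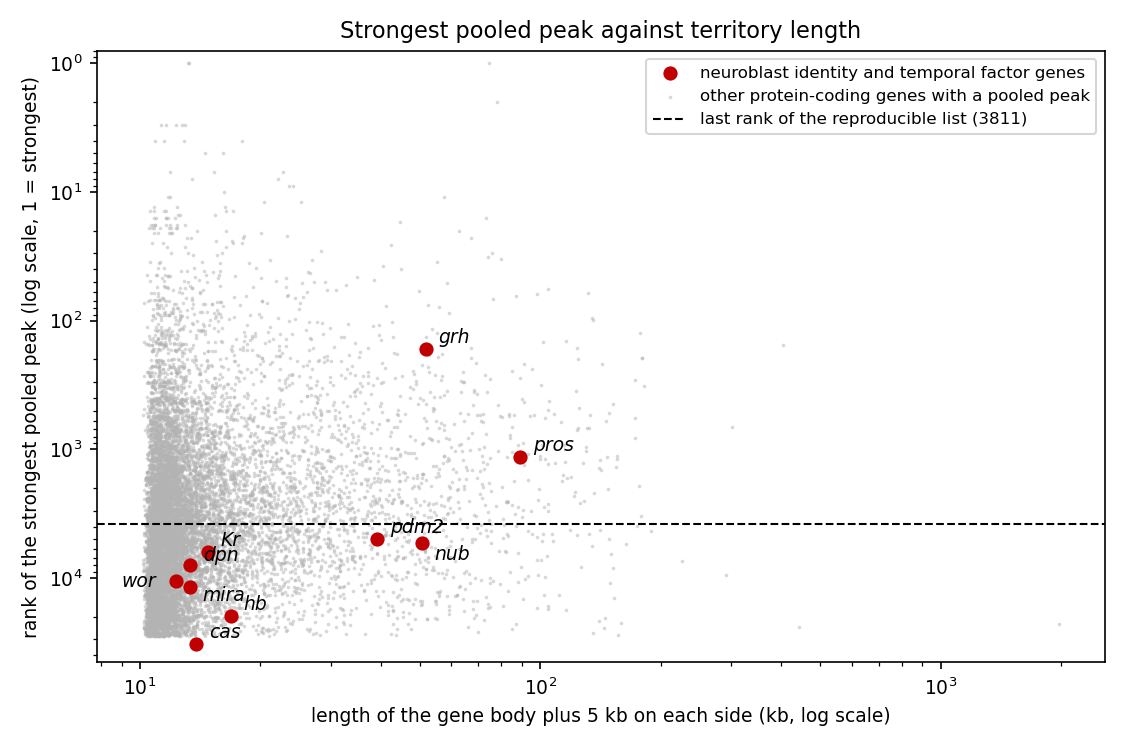
Rank of the strongest pooled peak in a territory (y axis, log scale, 1 is the strongest) against the length of the territory in kb (x axis, log scale) for the 10 genes (red) and the other protein-coding genes with a pooled peak (grey), with a dashed line at rank 3811. The point of cas, which has no pooled peak, is drawn below the last rank; grh and pros alone of the 10 lie above the line.

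At their own transcript starts, 7 of the 10 genes had a pooled summit within 500 bp (Kr, pdm2, grh, wor, dpn, mira and pros), against 49.6% of all protein-coding genes. Those summits ranked from 4074 (pros) to 23442 (grh). In the reproducible list the count was 0 of 10, against 16.4%. A gene with more annotated starts has more such windows, and these shares are not matched for that. Of the genes with a pooled summit at a start, grh has 5 starts, pdm2 and pros 4 each and mira 2. The genes nub, with 3, and hb, with 2, had no such summit. Of the 78 pooled summits in the 10 territories, 47 lay in introns of the gene itself, 10 upstream, 12 downstream, 4 in coding exons, 3 in 5′ UTRs and 2 in 3′ UTRs. Most of the 78 lay in the territories of the long genes, grh (20), pros (18), nub (14) and pdm2 (8). The split by location was not computed for all pooled summits, so it is not read as a trait of the 10 genes. Of these 78, 23 lay inside a peak of all 3 replicates (29.5%), against 36.5% of all pooled summits. Below the reproducible list the shares were 19 of 74 (25.7%) and 26.8%.

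Within 50 bp of the 78 pooled summits, AAATCA was found at 11 (14.1%), in 6 genes (Kr, grh, nub, pdm2, pros and wor), against 12.5% of all 28357 pooled summits. E-boxes stood at 33 (42.3%) in all 9 genes with a pooled summit, against 38.6%. AGATAA stood at 2 (2.56%, in grh and pros), against 6.74%, and the Zelda site at 2 (2.56%, in dpn and pdm2), against 0.43%. At the 4 reproducible summits AAATCA was found at 0, against 14.2% of all 3811 reproducible summits. AGATAA was found at 0, against 8.003%, the Zelda site at 0, against 0.42%, and an E-box at 1, against 35.3%. Both strands were searched, and the last letters of AAATCA can begin an E-box, so their matches may overlap. These matches describe letters in a window only.

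Of 30 other genes of neuroblast identity, timing and division, 16 had a reproducible summit, against 42.4% of all protein-coding genes. All 30 had a pooled one, against 87.3%. These 30 genes are long, with a median length of 10823 bp against 2166 bp over all protein-coding genes. Among those of at least 25 kb the count of genes with a reproducible summit was 5 of 8, against 61.2%. Among those under 10 kb it was 6 of 14, against 39.6%. Among 10 genes of polarity and asymmetric division, 7 had a reproducible summit (insc, pins, brat, baz, aPKC, par-6 and dlg1). Among 11 genes of the temporal switch and of other temporal series there were 6 (D, chinmo, Imp, ey, slp1 and slp2), among 3 genes of the dorsoventral columns 2 (vnd and Dr), and among 6 proneural, Snail family and SoxB genes 1 (scrt). Some of these summits were nearest to the start of another gene. The only one of pins lay in the 5′ UTR of wdb, 127 bp from a wdb start and 1424 bp upstream of pins. The difference between the 30 genes and the 10 was not tested.

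The strongest of these sites were among the 3811 strongest peaks of each replicate. That of brat, a translational repressor that Miranda carries with Prospero, ranked 79 (86, 76 and 93 in replicates 1, 2 and 3), in an intron 705 bp upstream of a brat start. That of the forkhead gene slp2, a temporal factor of optic lobe neuroblasts, ranked 139 (127, 118 and 191), 4331 bp upstream. That of baz, a polarity scaffold, ranked 221 (181, 224 and 290), nearest to the start of lncRNA:CR44026. The site of chinmo, a gene of neuron timing, ranked 359 and was nearest to lncRNA:CR45695, 1630 bp away. That of insc, which links polarity to the spindle, ranked 572, nearest to lncRNA:CR44667, and that of par-6, a partner of baz and aPKC, ranked 688 and was nearest to CG8188, at 115 bp.

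**Figure D5:**
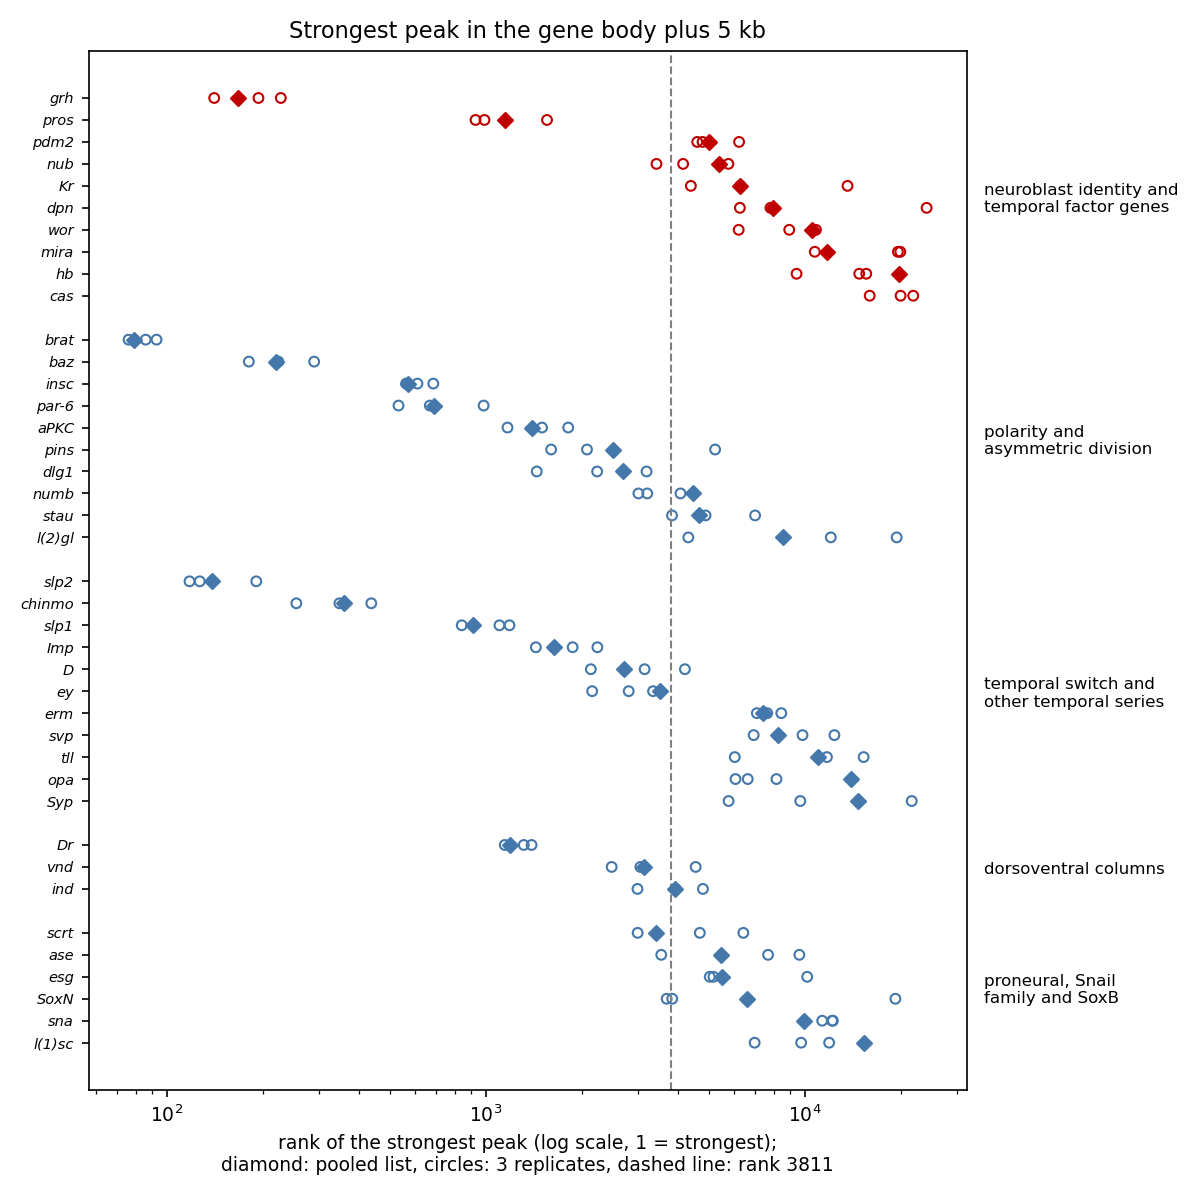
Rank of the strongest peak in the territory (x axis, log scale, 1 is the strongest) for the 10 genes (red) and 30 other neuroblast genes in 4 role groups (blue), each gene on its own line, with the pooled list as a diamond, the 3 replicates as circles and a dashed line at rank 3811. Diamonds left of the line are genes with a reproducible summit, 2 of the 10 and 16 of the 30.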

How the data were processed

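The analysis started from the authors' 5 deposited peak lists on dm6 in narrowPeak layout: 1 per replicate, 1 from the pooled replicates and the optimal IDR list. Per the labels, sonication gave fragments of 200 to 800 bp. The window of 4 to 14 hours was read from the source description, because the label for age cannot be right. The deposited lists give, for each peak, the authors' signal value, −log10 q-value and summit offset. Among the inputs of the dm6 lists the deposited notes name no control. Which aligner and caller were used is not given in the sources used here. Lists on dm3 were not used, since positions were not converted between builds.

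Genes came from Ensembl release 115 (BDGP6, dm6 positions, 1-based), and all 10 genes have the same start and end in RefSeq. Transposable element records were left out. A summit is the peak start plus the offset. A replicate covers a summit where a peak of its list contains it, and the strongest such peak gives the rank. A replicate peak that overlaps the pooled peak but misses its summit does not count as covering. Distances to the own start are to the nearest own transcript start, or to the 5′ end of the gene record where the gene start is named. Motifs were searched within 50 bp of summits on both strands. Python 3.11.15, pandas 2.3.3, NumPy 2.4.6 and Matplotlib 3.10.9 were used, and the counting functions were tested on simulated data. All samples form 1 group, so no test between conditions was made. The 10 genes, the lists and the length classes were chosen with earlier results of these data known. The named genes are the 10, the gene with the nearest start to each described peak, and the other neuroblast genes with a reproducible summit, with values for the 6 strongest.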

Additional observations from a re-analysis of the deposited data

How the results depend on the processing

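The same 2 genes, grh and pros, had a reproducible summit with 1 kb territories (against 24.9% of all protein-coding genes), by the nearest transcript start (17.4%), among peaks above the median of that list (26.3%) and without each replicate in turn (33.6% to 34.8%). The distance between 2 of 10 genes and the share of all genes, 42.4% with 5 kb, thus depends on the setting, and by the nearest start the 10 genes were not below it. In replicate 1 taken singly, nub was added (3). With 10 kb territories 5 genes had one (cas, wor and dpn added, from summits nearest to other genes), against 56.7% of all protein-coding genes, and at a pooled q-value of 0.01 it was 4, against 54.2%. The number of reproducible summits, 4, was 8 with 10 kb, 2 by the nearest transcript start, 12 at a pooled q-value of 0.01 and 7 in replicate 2 taken singly, and it was 3 to 4 with a replicate left out. Leaving out replicate 1 or replicate 2 removes the pros site inside KP78a. Pooled summits were found at 9 genes, but at 4 with a q-value of 0.01. Among the other 30 neuroblast genes, 16 had a reproducible summit, 10 among peaks above the median of that list and 11 to 12 with a replicate left out, settings in which the share of all protein-coding genes was also lower (26.3% and 33.6% to 34.8%). For these 30 the count was 11 with 1 kb territories, against 24.9% of all, and 13 by the nearest transcript start, against 17.4%. It was 19 with 10 kb territories, against 56.7%, and 21 at a pooled q-value of 0.01, against 54.2%. With 100 bp on each side of the summit, AAATCA was matched at 1 of the 4 reproducible summits (in pros), against 25.85% of all 3811. The 50 bp window gave 0 of 4, against 14.17%. With a replicate left out, a listed peak had to be strong in both of the others, and no peak was called anew. Ranks are limited by the unknown depth. No paired analysis was possible because the 3 replicates form 1 group.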
